A study of Mus musculus with 8 samples.

Results

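The subunits of the respiratory chain and of ATP synthase were examined by complex and by the genome that encodes them. Members were the protein-coding genes whose symbols begin with Nduf, Uqcr, Atp5 or Cox4 to Cox8, together with Sdha to Sdhd, Cyc1 and the mitochondrial genes for Nd, Co, Cytb and Atp subunits. The table held 101 of them among 20189 genes, 88 encoded in the nucleus and 13 in the mitochondrial genome. Complex I had 51 members, complex II 4, complex III 10, complex IV 17 and complex V 19. Of the nuclear members, 79 were structural subunits and 9 were assembly or accessory factors that share the names. A further 6 mouse genes whose symbols match the rule (Cox6a2, Cox6b2, Cox7b2, Cox8b, Cox8c and Ndufa4l2) were not in the table and were not analysed here.

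The cells were wild-type 4T1, an established carcinoma line from the mouse mammary gland that metastasizes to lung, grown in DMEM with serum. Treatment lasted 48 hours, with 5 mM acetate in 1 group and water (vehicle) in the other, and acetate was added in the study to raise the supply of acetyl-CoA. Each of the 2 groups had 4 libraries, and same-numbered libraries share a code in their labels, so the comparison was made within 4 pairs. All libraries came from 1 line in culture, without host cells.

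Electrons from NADH enter the chain at complex I and electrons from succinate enter at complex II. Coenzyme Q carries them to complex III, cytochrome c carries them to complex IV, and oxygen receives them there. Complexes I, III and IV pump protons across the inner membrane, and complex V, the ATP synthase, lets them return while making ATP. Complex II is encoded wholly in the nucleus, and each of the others combines subunits of both genomes. The mitochondrial genome is copied into long RNAs from each of its strands, and these are cut into separate messenger, ribosomal and transfer RNAs. The ribosomal RNAs lie first on the heavy-strand transcript, mt-Cytb lies last among its messengers, and mt-Nd6 is the one messenger made from the light strand.

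Libraries held between 19895088 and 29305620 reads, and values are reads scaled to the same total in each library, called normalized reads below. The 13 mitochondrial mRNAs took up between 2.02% and 2.48% of a library, and the 88 nuclear members between 0.846% and 1.04%. All 5 epithelial markers were expressed, Epcam at 4319 to 10020 normalized reads, and 2 of them rose in acetate, Krt19 (log2 change 0.40 ± 0.04, SE) and Cdh1 (0.15 ± 0.03). Of 9 markers of other cells 5 were in the table, and the leukocyte and endothelial markers Ptprc, Pecam1 and Cdh5 stayed under 5. The fibroblast marker Dcn did not exceed 14.5, whereas Pdgfra, a receptor found on fibroblasts, ranged from 229 to 1961 and was higher in acetate in 4 of 4 pairs (log2 change 0.52 ± 0.06, SE; limma adjusted p 3.72e-04). The other 4 were also higher on average, by log2 changes from 0.39 (Ptprc) to 0.72 (Dcn), but near 0 reads, in at most 3 of 4 pairs and without passing. The part of Pdgfra-expressing cells in the results was not tested. In bulk RNA, fewer cells of one kind and less RNA per cell cannot be told apart.

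Most respiratory chain genes differed little between acetate and vehicle. With pairs in the model, 8 of the 101 members passed an adjusted p of 0.05 over all genes (limma on log2 of the value plus 1, Benjamini-Hochberg), and 93 did not. The members that rose were mt-Nd1, mt-Nd6, Ndufv3, Uqcrh and Atp5g3, and those that fell were mt-Nd4, mt-Cytb and Atp5g2. Over all genes, 5.99% were called higher and 2.65% lower, so that 5 higher and 3 lower members among 101 stood near that background. Highly expressed genes pass more often. Among the 10292 genes with a mean of 100 normalized reads or more, 9.89% were called higher and 5.08% lower, beside 5 and 3 of the 92 members above that level. The median log2 change was -0.03 over the nuclear members, -0.00 over the mitochondrial members and 0.02 over all genes. Over the genes with 100 normalized reads or more it was 0.00. For 87 of the 101 members the 95% interval of the change lay within 1.25-fold in either direction. The same held for 9007 of the 10292 genes with 100 normalized reads or more, so the members stood near other genes of that level.

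Both groups overlapped for each of the 101 members, where 1.59% of all genes with 100 normalized reads or more had groups that did not. The range of log2 values among the 4 vehicle libraries was larger than the change in every member (median range 0.41). The calls therefore rest on the pairs. Without the replicate block no member passed, none had an unadjusted p under 0.05, and 0 of 20189 genes passed in limma (353 had an unadjusted p under 0.05). In edgeR with the block on reads recovered from the values, 19 members passed, 5 higher and 14 lower, where 6.51% of all genes were called higher and 5.38% lower. These included the 8 members called in limma, in the same directions. With median-of-ratios scaling in limma, 3 members were higher and 9 lower, and over all genes 1000 were higher and 821 lower, against 1209 and 535 with the deposited scaling. DESeq2 called 7 members, 2 higher and 5 lower, where 653 of the 20189 genes were called higher and 473 lower. The count of lower members depends on the tool and the scaling.

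**Figure D1:**
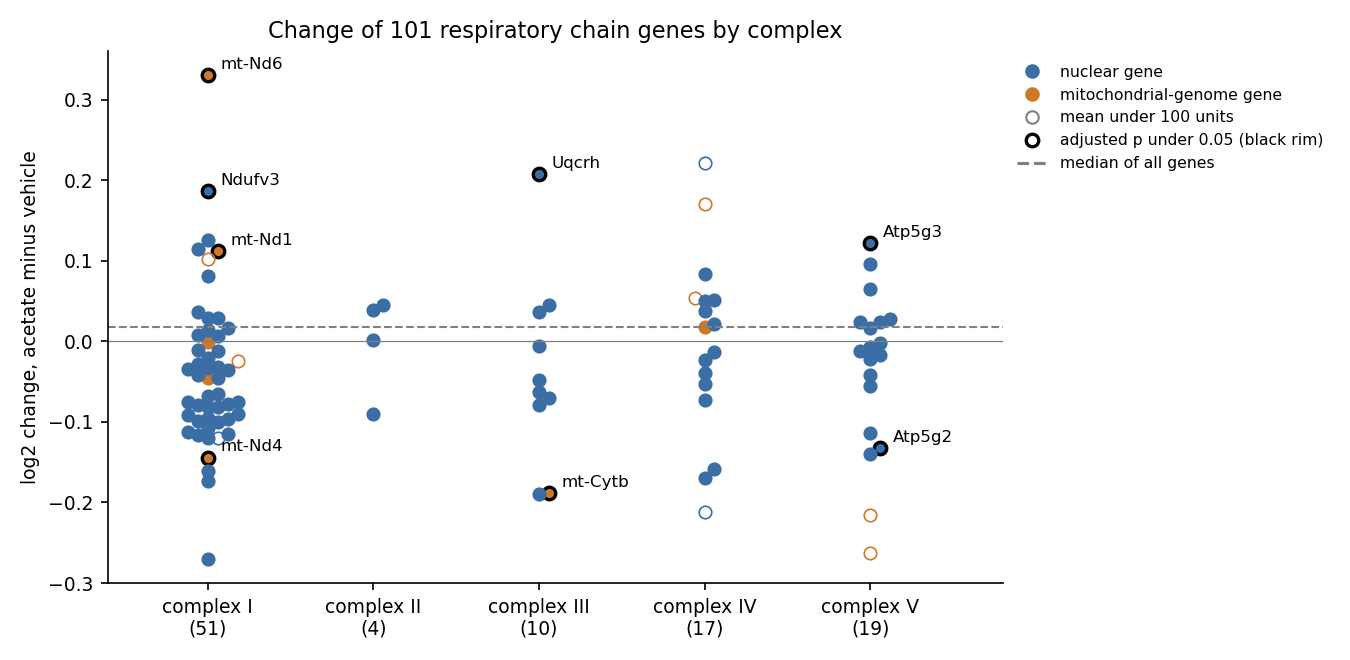
Log2 change between acetate and vehicle (vertical axis) for each of the 101 members in its complex, with nuclear genes in blue, mitochondrial genes in orange, open circles for means under 100 normalized reads and a black rim for limma adjusted p under 0.05. The 8 called members lie between -0.19 and 0.33, and the bulk of complex I lies below the median of all genes at 0.02 (dashed line). The median of genes with 100 normalized reads or more is 0.00.

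Direction was also counted without a test. Members with a mean of 100 normalized reads or more were lower in acetate in 4 of 4 pairs in 19 of 92 cases (20.7%) and higher in 10 (10.9%). Over all genes of that level, 18.2% were lower and 21.6% higher in 4 of 4 pairs. The share of lower members was thus near that of other genes, and the share of higher members was below it. The difference was not tested.

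The RNAs of the mitochondrial genome are given next. Nuclear members such as Ndufv3 (log2 change 0.19) and Uqcrh (0.21) differed by similar amounts, and the genomes were not compared by a test. The 13 mitochondrial mRNAs included 2 called higher and 2 called lower, all among the 7 with 100 normalized reads or more. Over all genes 5.99% were called higher and 2.65% lower, and over genes of that level 9.89% and 5.08%. The order of the messengers along the heavy-strand transcript is given here with the values. The ribosomal RNAs are not members but lie upstream of all messengers on that transcript. mt-Rnr1, the small ribosomal RNA (chromosome M, 70 to 1024), had 5158, 4331, 4597 and 4682 normalized reads in vehicle replicates 1 to 4 and 7005, 8256, 6919 and 5971 in acetate. The groups did not overlap, and it rose by a log2 of 0.58 ± 0.07 (SE; limma adjusted p 7.61e-04). mt-Rnr2, the large ribosomal RNA (1094 to 2675), went from 19229 ± 1955 to 22411 ± 2553 (SD, n = 4), a log2 change of 0.22 ± 0.04 (adjusted p 0.0111). The libraries were made with an mRNA kit, which selects RNA by its poly-A tail, so these are values of a selected fraction.

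mt-Nd1 encodes a core subunit of the membrane arm of complex I and is the first messenger after the ribosomal RNAs (2751 to 3707). Its values were 90365, 66994, 70839 and 73272 in vehicle and 93513, 75455, 79668 and 76268 in acetate. Each acetate library was above its own vehicle library, while vehicle replicate 1 was above 3 acetate libraries. The log2 change was 0.11 ± 0.03 (SE; limma adjusted p 0.0350). The next messengers, mt-Nd2 (log2 change -0.00 ± 0.02) and mt-Co1 (0.02 ± 0.02), were not called. mt-Co1, the catalytic subunit of complex IV, was the most abundant member, with 159804 ± 28723 normalized reads in vehicle and 161645 ± 27798 in acetate.

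mt-Nd4, another core subunit of complex I (10167 to 11544), had 20705, 22450, 23610 and 25871 in vehicle and 19112, 19905, 22294 and 22437 in acetate. It fell in 4 of 4 pairs, by a log2 of 0.14 ± 0.03 (-0.14; adjusted p 0.00709). mt-Nd5 (11742 to 13565) changed by -0.05 ± 0.03 and was not called. mt-Cytb, the cytochrome b of complex III (14145 to 15288), had 76903, 84490, 82947 and 99994 in vehicle and 71452, 70068, 77763 and 82187 in acetate. It was lower in 4 of 4 pairs, with a log2 change of -0.19 ± 0.04 (adjusted p 0.00743). As mt-Nd1 is the first messenger of the heavy-strand transcript, any other one called lies downstream of it. That those called lower lay downstream was therefore fixed in advance. Changes did not fall steadily along the transcript, with mt-Nd5 (-0.05) between mt-Nd4 (-0.14) and mt-Cytb (-0.19). The call of mt-Nd1 was lost with a pseudocount of 5 (0.0705), with median-of-ratios scaling (0.0968) and in DESeq2 (0.0876).

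The opposite ends of that transcript were compared within each library. The ratio of mt-Cytb to mt-Nd1 was 0.851, 1.26, 1.17 and 1.36 in vehicle and 0.764, 0.929, 0.976 and 1.08 in acetate. It was lower in 4 of 4 pairs, by a mean log2 of 0.30 (-0.30 ± 0.12, SD of 4 pairs). The ratio of mt-Rnr1 to mt-Nd1 was higher in 4 of 4 pairs (0.0626 ± 0.00373 in vehicle and 0.0874 ± 0.0155 in acetate). These ratios, and those of mt-Nd4 to mt-Nd1 and mt-Nd6 to mt-Nd5, were chosen after their values were seen. Each of the 4 gave an exact two-sided paired permutation p of 0.125, also after adjustment, which is the smallest that 4 pairs allow.

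mt-Nd6, the complex I subunit made from the light strand (13552 to 14070), had 1895, 1023, 1078 and 1181 in vehicle and 2005, 1388, 1232 and 1800 in acetate. Replicate 1 was high in both groups, and the pairs rose by log2 values from 0.08 to 0.61. The log2 change was 0.33 ± 0.07 (adjusted p 0.0127), the largest among the members called, and was not past the threshold in DESeq2 (0.0725). As for the ribosomal RNAs, these are values of a fraction selected by poly-A tail, and how well mt-Nd6 is captured was not tested. mt-Nd6 overlaps mt-Nd5 by 14 bases on the opposite strand. Use of strand in the counting is not given in the sources used here.

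**Figure D2:**
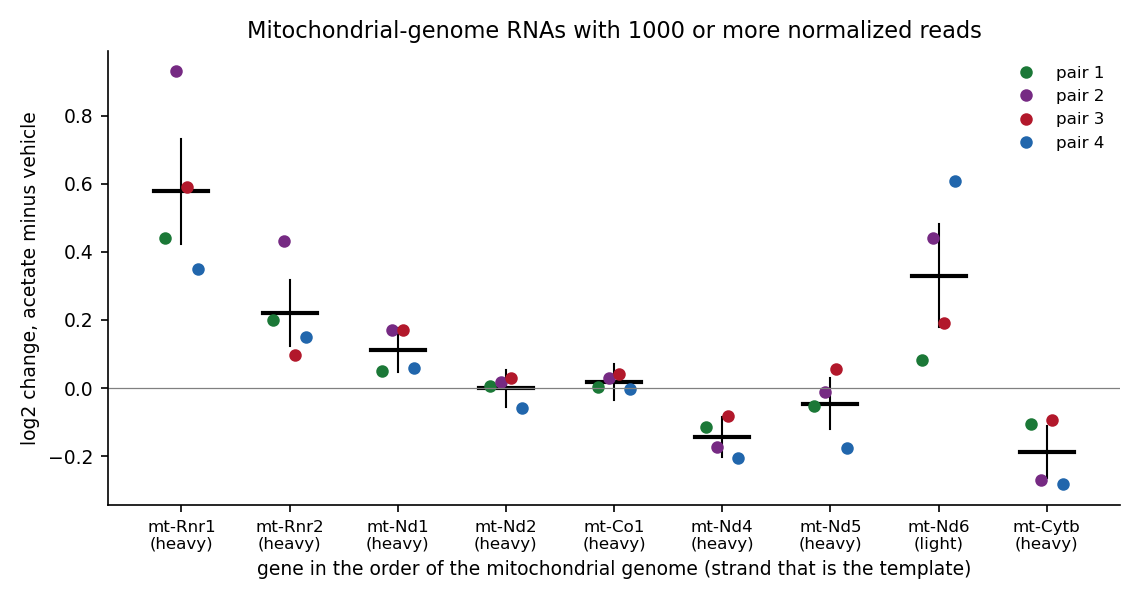
Log2 change between acetate and vehicle for the 9 mitochondrial RNAs with 1000 or more normalized reads, in genome order and with the template strand in brackets; dots are the 4 pairs, thick bars the limma estimate and thin bars its 95% interval. The estimates are 0.58 at mt-Rnr1, 0.22 at mt-Rnr2, 0.11 at mt-Nd1, -0.00 at mt-Nd2 and 0.02 at mt-Co1. They are -0.14 at mt-Nd4, -0.05 at mt-Nd5 and -0.19 at mt-Cytb, with mt-Nd6 of the other strand at 0.33.

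The other 6 mitochondrial mRNAs were close to unmeasured. mt-Co2, mt-Co3, mt-Atp6, mt-Atp8, mt-Nd3 and mt-Nd4l did not exceed 69.8 normalized reads in any library, although they lie on the same transcript as mt-Co1. Per kilobase of transcript in vehicle, they ran from 4.74 (mt-Nd4l) to 81.7 (mt-Co2), whereas the other 7 ran from 2493 (mt-Nd6) to 103433 (mt-Co1). None was called, and no interval of the 6 lay within 1.25-fold. Their changes are thus not known from these data.

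These genes have copies in the nuclear genome. Every stretch of 75 bases, the length of 1 read, was compared with the transcripts of all other annotated genes. At least 97.8% of the stretches of mt-Co2, mt-Co3, mt-Atp6, mt-Nd3 and mt-Nd4l also occurred in another annotated gene. Each of these 5 has a pseudogene on chromosome 1 of GRCm38 with no differing base over the aligned length. The pseudogenes of these 5 genes were themselves listed at 4.07 to 80.8 normalized reads. mt-Nd4 shared 61.5% of its stretches and mt-Co1 39.8%, and mt-Nd1, mt-Nd6 and mt-Cytb shared none. For mt-Atp8 no stretch was found in an annotated transcript, and the 233 bases of chromosome 1 between the copies of mt-Atp6 and mt-Co2 lie in no such transcript. How reads that match several places were treated is not stated in the sources used here, and the part of shared sequence in the low values was not tested.

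The first stretches that 3 of these genes share with their copies are printed to show that a read of that length cannot be placed from its letters. They start at base 2 of each transcript and run on the plus strand of chromosome M in GENCODE M21, from 7928 to 8002 for mt-Atp6, from 8608 to 8682 for mt-Co3 and from 10168 to 10242 for mt-Nd4. The pseudogenes holding the same letters are Gm10925, Gm28437 and Gm28439 in that order.
mt-Atp6: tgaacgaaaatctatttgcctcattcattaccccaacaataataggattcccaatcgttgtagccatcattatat
mt-Co3: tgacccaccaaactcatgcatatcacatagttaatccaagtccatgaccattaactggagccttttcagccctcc
mt-Nd4: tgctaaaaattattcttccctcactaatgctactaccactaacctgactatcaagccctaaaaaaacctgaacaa

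**Figure D3:**
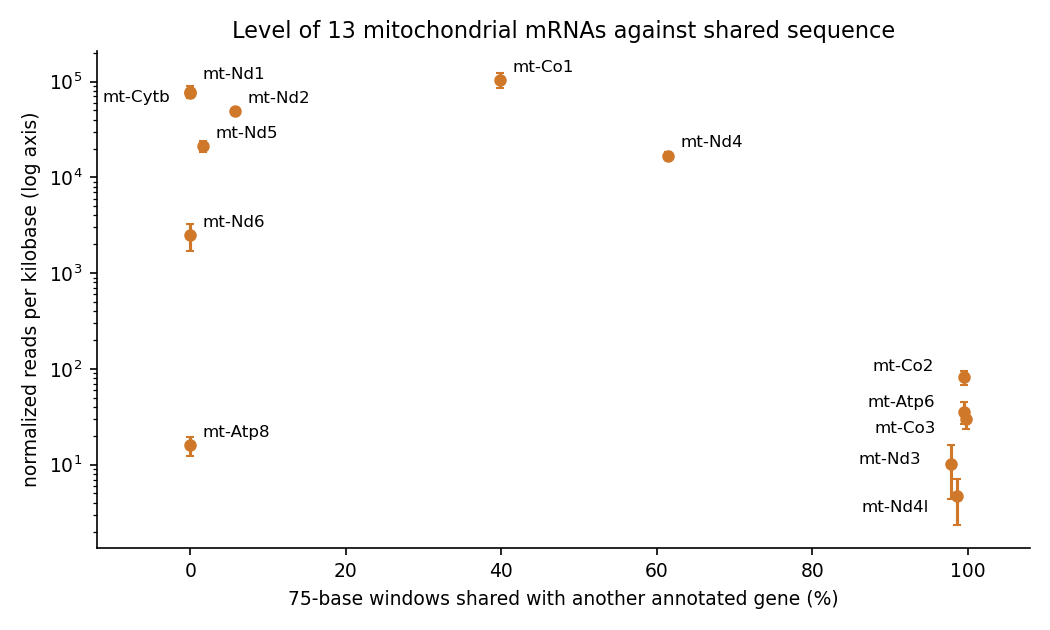
Vehicle mean in normalized reads per kilobase (log axis, bars are the SD of 4 libraries) against the share of 75-base stretches found in another annotated gene, for the 13 mitochondrial mRNAs. The 5 genes at 97.8% or more lie at or under 81.7 per kilobase and mt-Nd4, at 61.5%, lies at 16806, while mt-Atp8 is low with no shared stretch.

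Complex I takes electrons from NADH in a peripheral arm and pumps protons in a membrane arm. Among its 36 nuclear structural subunits, 27 were lower in acetate on average and 9 higher, with a median log2 change of -0.05. In limma 1 was called higher and none lower, beside 5.99% and 2.65% of all genes, and in edgeR 1 was called higher and 6 lower, beside 6.51% and 5.38%. The subunit called higher was Ndufv3, an accessory subunit of the peripheral arm (chromosome 17, 31520115 to 31531331). It had 473, 1215, 1143 and 1529 normalized reads in vehicle and 545, 1375, 1254 and 1795 in acetate. Replicate 1 was far below the others in both groups, and each acetate library was above its vehicle library. The rise was 0.19 ± 0.03 on the log2 scale (adjusted p 0.00725).

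The 7 core subunits of the peripheral arm carry the flavin and the iron-sulfur clusters that pass electrons on. Of these, 6 were lower on average and 5 were lower in 4 of 4 pairs, and none was called in limma. Ndufs1, the largest of them, had 2681 ± 454 normalized reads without and 2461 ± 284 with acetate (SD, n = 4), a log2 change of -0.12 ± 0.03 (adjusted p 0.0515). Ndufs3 changed by -0.17 ± 0.05 (adjusted p 0.0560). Both passed in edgeR with the block (adjusted p 0.00839 and 0.00906). Ndufs7 (-0.12), Ndufs8 (-0.09), Ndufv1 (-0.08) and Ndufv2 (-0.03) were not called either. The median change of the 7 was -0.09, and the 4 pairs gave medians between -0.05 and -0.08.

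The 20 nuclear subunits of the membrane arm had a median of -0.03, and none was called. Ndufa13 and Ndufa10, accessory subunits there, changed by -0.10 each (limma adjusted p 0.0761 and 0.106) and passed in edgeR. Ndufb11, also accessory, changed by -0.11 (limma adjusted p 0.166) and passed in edgeR as well (0.0474). Ndufb2 stood out by its level, at 64.5 ± 13.5 normalized reads in vehicle where the other nuclear subunits of complex I were above 100. None of the 8 assembly factors named Ndufaf was called in limma. Ndufaf8 had the largest difference (-0.27 ± 0.09, adjusted p 0.0916; edgeR 0.0335). Ndufaf4 differed most between replicates among members above 100 normalized reads, with 1236, 426, 466 and 220 in vehicle and 1168, 403, 430 and 194 in acetate, a pattern over replicates that both groups shared.

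Complex II oxidizes succinate and belongs to the citric acid cycle as well. The log2 changes of its 4 subunits ran from -0.09 to 0.04, and none passed. Sdha, the flavoprotein that binds succinate, had 4833, 5124, 4883 and 4893 in vehicle and 4907, 5060, 4978 and 4805 in acetate. Its log2 change was 0.00 with a 95% interval from -0.05 to 0.06. The iron-sulfur subunit Sdhb changed by -0.09 ± 0.04 (adjusted p 0.163), and the membrane anchors Sdhc and Sdhd by 0.04 ± 0.03 each.

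Complex III passes electrons from coenzyme Q to cytochrome c. Of its 9 nuclear subunits 6 were lower on average and 3 higher, and 1 was called. Uqcrh, the hinge protein that contacts cytochrome c (chromosome 4, 116066965 to 116075071), had 2318, 1962, 1752 and 2061 in vehicle and 2368, 2355, 2142 and 2444 in acetate. It rose by 0.21 ± 0.04 (adjusted p 0.0107), with 0.03 in pair 1 and 0.25 to 0.29 in the others. Uqcrq, a small accessory subunit, had the smallest p among those that were lower, with a log2 change of -0.19 ± 0.06 (adjusted p 0.0608), a pair 1 difference of 0.02 and a pair 4 difference of -0.42. It passed in edgeR (0.00991) and in limma without replicate 1 (0.0108). The core proteins Uqcrc1 and Uqcrc2 changed by -0.08 ± 0.02 and -0.01 ± 0.03. Uqcrc1 passed as lower in edgeR (adjusted p 0.0262) and in limma with median-of-ratios scaling (0.0373). The catalytic Cyc1 (-0.05) and the Rieske protein Uqcrfs1 (0.04) were not called. Within complex III the mitochondrial mt-Cytb was called lower and the nuclear Uqcrh higher. The median over the 9 nuclear subunits was -0.05, so Uqcrh does not stand for the nuclear subunits as a group.

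Complex IV reduces oxygen, and none of its 14 nuclear subunits was called in limma, while edgeR called Cox5b lower (adjusted p 0.0334). The smallest limma p was that of Cox6b1 among higher members (0.08 ± 0.04, adjusted p 0.191) and that of Cox5b among lower ones (-0.17 ± 0.07, adjusted p 0.176). Cox5b had 1128, 1244, 1949 and 1233 in vehicle and 1166, 1150, 1362 and 1153 in acetate. Cox8a had 1854, 1824, 3418 and 1656 in vehicle and 2048, 1822, 2098 and 1576 in acetate. Both differences turn on vehicle replicate 3, and without that pair the log2 changes were -0.05 for Cox5b and 0.02 for Cox8a, against -0.17 and -0.16 with it.

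Of the paired isoforms of complex IV, the forms of most tissues were the ones seen. Cox4i1 had 6668 ± 213 normalized reads in vehicle and 6843 ± 223 in acetate. Cox4i2, a form of lung and low oxygen, lay between 0 and 1.62, and Cox7a1, the form of heart and muscle, had 5.78 ± 3.80 and 4.34 ± 2.04. Cox7a2 was at 1727 ± 228 and 1787 ± 205, and Cox6a1 at 2175 ± 305 and 2103 ± 82.3. Cox7a2l, which joins complexes III and IV, ranged from 1970 in vehicle replicate 1 to 4130 in vehicle replicate 4, and changed by -0.02 ± 0.03. Ndufa4, once counted to complex I and now to complex IV, changed by 0.02 ± 0.03.

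Complex V makes ATP in its F1 head, driven by a ring of c subunits in the membrane. The 5 subunits of F1 changed by -0.06 to 0.02 and the 4 stalk subunits by -0.02 to 0.06, and none was called. Atp5b, the catalytic beta subunit, was the most abundant nuclear member, with 31310 ± 3448 in vehicle and 31263 ± 4534 in acetate. The inhibitor Atpif1, which blocks reverse running of the enzyme and lies outside the rule, had 2357 ± 319 and 2386 ± 309, a log2 change of 0.02 ± 0.03.

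The limma calls within complex V were 2 c-ring genes. Mice have 3 nuclear genes, Atp5g1, Atp5g2 and Atp5g3, for 1 ring protein, and they differ in the leader that is cut off on import. Read from GENCODE M21, they encode 136, 146 and 141 residues, and the last 78 residues are identical in all 3. Over the 234 coding bases of that shared end, 63 positions differ. The first 30 codons of it are printed because the capitals, 26 positions at which the 3 genes do not all have the same base, are what lets reads be told apart.
Atp5g1: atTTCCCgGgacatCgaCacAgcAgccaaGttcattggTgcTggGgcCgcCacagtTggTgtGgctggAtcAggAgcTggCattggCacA
Atp5g2: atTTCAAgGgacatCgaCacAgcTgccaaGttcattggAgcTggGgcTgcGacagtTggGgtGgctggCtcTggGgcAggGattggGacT
Atp5g3: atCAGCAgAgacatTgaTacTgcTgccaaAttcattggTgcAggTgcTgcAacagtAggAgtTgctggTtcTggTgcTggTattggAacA

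Atp5g3 (chromosome 2, 73908447 to 73911326) had 4996, 3622, 3754 and 3476 normalized reads in vehicle and 5444, 4009, 4318 and 3510 in acetate. It rose by 0.12 ± 0.03 (adjusted p 0.0391), with pair 4 at 0.01. Atp5g2 (chromosome 15, 102662864 to 102672352) had 1044, 1081, 1036 and 1203 in vehicle and 956, 956, 985 and 1084 in acetate, and fell in 4 of 4 pairs by a log2 of 0.13 ± 0.04 (-0.13; adjusted p 0.0394). Atp5g1 (chromosome 11, 96068852 to 96075670) had 1785, 1349, 1360 and 1079 in vehicle and 1639, 1233, 1301 and 980 in acetate. It was lower in 4 of 4 pairs, with a log2 change of -0.11 ± 0.03 that was not past the threshold (adjusted p 0.0528; edgeR 0.0201). The sum of the 3 genes was 6447 ± 934 in vehicle and 6604 ± 1046 in acetate, and Atp5g3 made up 61.3% ± 1.78 and 65.2% ± 1.97 of it. The share was higher in 4 of 4 pairs, which follows from the directions of the 3 genes and adds no separate evidence. It is a share of reads that was not corrected for transcript length. With a pseudocount of 0.1 the calls of Atp5g3 and Atp5g2 were lost (0.0618 and 0.0504), as they were in DESeq2 (0.14 and 0.0801), and Atp5g3 also lost its call with median-of-ratios scaling (0.0902). Atp5g2 shares 86.9% of its 75-base stretches with other annotated genes, most with the pseudogene Gm10175, so its value is uncertain, whereas Atp5g3 shares none and Atp5g1 7.63%.

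**Figure D4:**
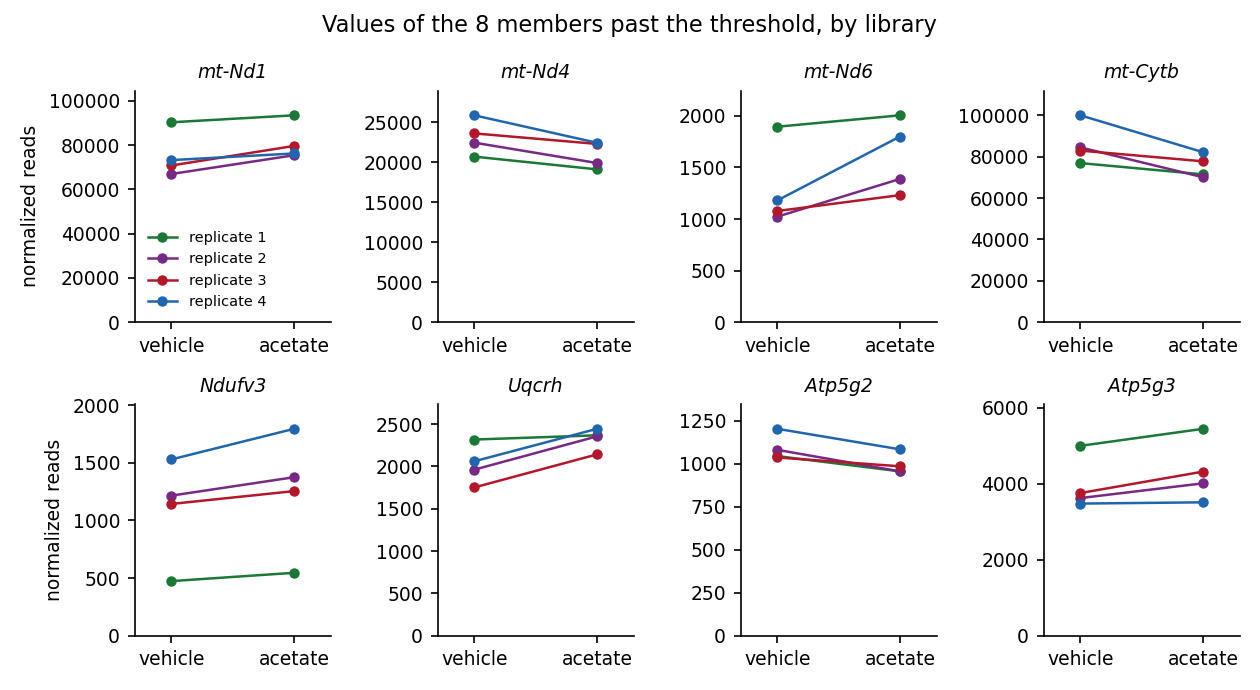
Normalized reads in vehicle and acetate for the 8 members past the threshold, each line 1 of the 4 pairs and each axis starting at 0. Lines slope the same way in all 4 pairs in every panel, while the distance between replicates exceeds the slope, as for Ndufv3 with 473 in vehicle replicate 1 and 1529 in vehicle replicate 4.

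Calls were lost in fits of 3 pairs. Without the pair of replicate 2 each of the 8 lost its call (limma adjusted p between 0.0532 and 0.249), and 1 other member, Ndufs3, passed (0.0475). Without replicate 4 only Atp5g3 passed, without replicate 3 Ndufv3, mt-Nd4 and mt-Cytb passed, and without replicate 1 all but Atp5g2 and Atp5g3 did, together with Uqcrq and Ndufa6. The log2 changes of the 8 stayed between 0.72 and 1.3 times those from 4 pairs, without a change of sign. Over all genes, 1744 calls became 1662, 617, 409 and 539 without replicates 1 to 4.

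Levels were compared per kilobase of each gene's principal transcript, as a description. In vehicle, the median of the nuclear structural subunits with 100 normalized reads or more was 1214 per kilobase in complex I (35 genes), 1707 in complex II (4), 2951 in complex III (9), 3119 in complex IV (12) and 2553 in complex V (16). In acetate the medians were 1153, 1658, 2805, 3149 and 2545. The order of the complexes was the same in both groups, and ranges overlapped between complexes. The range in complex V was the widest, from 296 (Atp5g1) to 16342 (Atp5b). Atp5g1 has a long annotated transcript, which lowers its value on this scale.

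**Figure D5:**
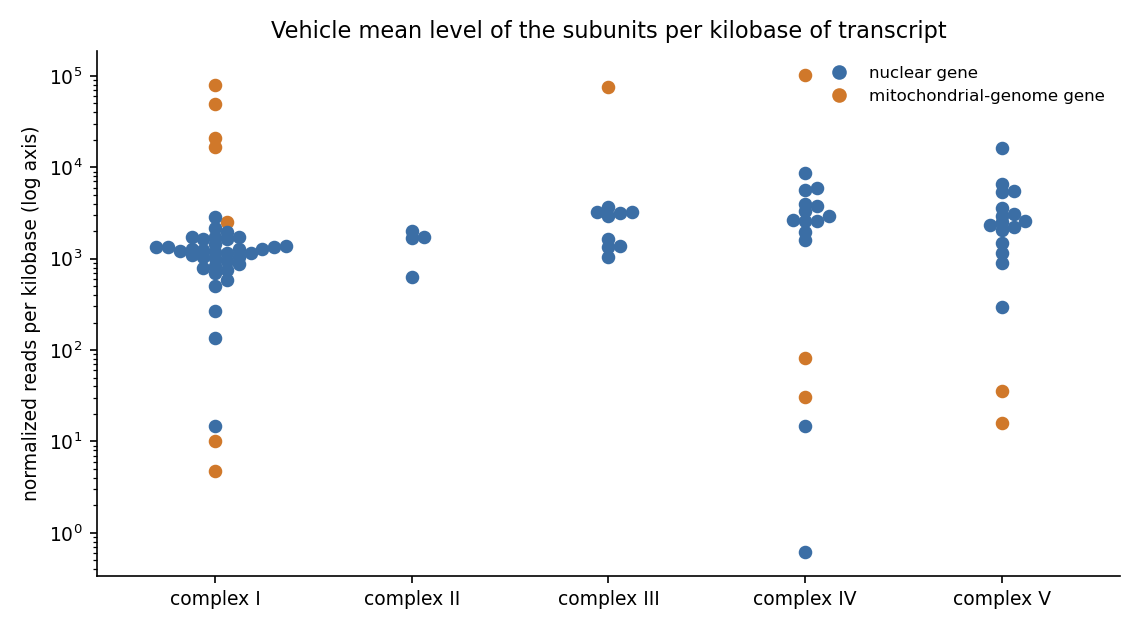
Vehicle mean of each structural subunit in normalized reads per kilobase of its principal transcript (log axis), by complex, with nuclear genes in blue and mitochondrial genes in orange. Nuclear subunits of complex I center near 1214 and those of complex IV near 3119, and the 7 well-measured mitochondrial mRNAs reach 103433 while the other 6 lie at or under 81.7.

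Replicates differed more than treatments. Over the 76 nuclear structural subunits with 100 normalized reads or more, vehicle replicate 1 lay above the mean of the other vehicle libraries by a median log2 of 0.18, and vehicle replicate 4 lay below by a median of -0.17. Acetate replicates 1 and 4 gave 0.19 and -0.19. Replicates 1 and 4 thus deviated in the same direction in both groups. Replicates 2 and 3 lay nearer to the other libraries, at -0.02 and 0.01 in vehicle and at -0.05 and 0.06 in acetate. The summed mitochondrial members were 2.02 to 2.86 times the summed nuclear members in vehicle and 1.97 to 2.78 times in acetate, with the highest ratio in replicate 4 of each group.

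Promoters of 73 of the 88 nuclear members were in the RefSeq table (GRCm38.p6, from 250 bases before to 50 after the start). NRF1 and the ETS factor GABP are known activators of respiratory genes, and YY1 binds many of their promoters. On either strand, GCGCATGC, part of the NRF1 site, occurred in 16.4% of them and in the promoters of 3.05% of all 27025 genes. CCGGAAG, an ETS site, occurred in 24.7% and 9.93%, and AAGATGGC, a YY1 site, in 15.1% and 3.19%. Base composition was not matched. Median log2 changes were -0.04 with and -0.03 without the NRF1 letters, -0.04 and -0.03 for ETS, and -0.02 and -0.04 for YY1. These differences were not tested.

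The bases before the start are printed for the c-ring genes that were called in opposite directions. Capitals mark NRF1 letters, which in Atp5g2 occur on both strands as 1 palindrome, and Atp5g3 has none of the 3 motifs in its window. Atp5g1, lower on average like Atp5g2, has none of them either, so the motif does not go with direction among the c-ring genes. Both printed windows lie on the minus strand, at chr15:102671048-102671297 for Atp5g2 and chr2:73911327-73911576 for Atp5g3. The annotations differ for Atp5g2, whose RefSeq start lies downstream of the outermost GENCODE start, so that its window falls within the GENCODE gene.
Atp5g2: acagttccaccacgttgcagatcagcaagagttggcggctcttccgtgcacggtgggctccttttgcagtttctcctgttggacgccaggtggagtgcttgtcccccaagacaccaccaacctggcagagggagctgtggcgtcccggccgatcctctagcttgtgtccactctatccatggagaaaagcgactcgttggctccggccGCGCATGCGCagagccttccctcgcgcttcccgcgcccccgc
Atp5g3: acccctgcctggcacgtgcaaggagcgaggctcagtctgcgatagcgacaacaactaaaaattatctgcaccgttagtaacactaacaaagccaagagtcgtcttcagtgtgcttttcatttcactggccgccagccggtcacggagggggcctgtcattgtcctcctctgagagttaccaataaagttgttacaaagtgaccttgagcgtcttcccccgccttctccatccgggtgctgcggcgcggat

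Genes that serve the chain were read from lists. Of 12 nuclear regulators in the table, 4 were called lower and none higher, beside 2.65% of all genes called lower. The list as a whole went both ways, with 7 lower and 5 higher on average, log2 changes from -0.16 to 0.53 and a median of -0.01. Hcfc1, a coactivator, fell from 6161 ± 832 to 5540 ± 551 (log2 change -0.15 ± 0.03, adjusted p 0.00628), and Pprc1, a coactivator related to PGC-1, changed by -0.16 ± 0.03 (0.0126). The GABP subunits Gabpa and Gabpb2 changed by -0.13 ± 0.03 and -0.14 ± 0.04 (0.0214 and 0.0477), whereas Nrf1 changed by 0.04 and was not called. Gabpa shares 397 exon bases with Atp5j on the opposite strand. Of 16 genes for maintenance and transcription of mitochondrial DNA none was called, Tfam included (-0.02 ± 0.04). By unadjusted p, 4 of these 16 were under 0.05 in limma, where 22.4% of all genes were, and 34% of those with 100 normalized reads or more.

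Of 20 genes for processing and stability of mitochondrial RNA 1 was called, Rexo2, an exonuclease for very short RNAs, with a log2 change of -0.27 ± 0.04 (adjusted p 0.00281). Of 43 assembly factors and subunits outside the rule 1 was called, the F1 assembly factor Atpaf2 (-0.15 ± 0.04, adjusted p 0.0288). Atpaf2 lost its call in DESeq2 (adjusted p 0.078). Of 21 genes for electron carriers and coenzyme Q synthesis 2 were called lower, Pdss1, which makes the tail of coenzyme Q (-0.27 ± 0.04, adjusted p 0.00383), and Prodh, which feeds electrons from proline (-0.31 ± 0.07, 0.0147). Cytochrome c itself, Cycs, changed by -0.03 ± 0.04. Of 19 genes of the citric acid cycle 1 rose, the NADP-dependent isocitrate dehydrogenase Idh2 (0.22 ± 0.03, adjusted p 0.00195), and 1 fell, the pyruvate dehydrogenase subunit Pdhb (-0.11 ± 0.03, 0.0397). Pdhb lost its call with a pseudocount of 0.1 (limma adjusted p 0.0504) and in DESeq2 (0.0543). Of the 12 mitochondrial ribosomal and transfer RNAs in the table only mt-Rnr1 and mt-Rnr2 were called.

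Ribosomal protein genes served as a comparison of similar size. Of 77 genes for mitochondrial ribosomal proteins 1 was called lower and none higher, with a median log2 change of -0.08, and of 96 for cytosolic ribosomal proteins 1 was called higher and 2 lower, with a median of -0.06. The nuclear respiratory members, with 3 higher and 1 lower of 88 and a median of -0.03, lay between these and all genes. The difference between these groups was not tested.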

How the data were processed

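Messenger RNA of 8 libraries of 4T1 cells (4 vehicle, 4 acetate) was analyzed. Per the labels, stranded mRNA libraries were read as pairs of 75 bases, and the submitters' processing notes name STAR, HTSeq and the builds mm10 and GRCm38. The deposited values are a normalized signal: the authors scaled the reads of each gene to a library total of 20000000. In each library 100% of the values were whole multiples of what 1 read was worth (tolerance 0.1), which gave back the reads. The table held only genes above 0 in at least 4 libraries, and no column was without a sample. Genes were matched to GENCODE M21 (20004 of 20189 had a symbol), and coordinates count from 1.

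Acetate was compared with vehicle by limma 3.58.1 (R 4.3.3), using lmFit and eBayes with trend and two-sided tests. The fit took log2(value + 1) of all genes and had the replicate number as a block, with Benjamini-Hochberg adjustment at 0.05. Changes on this scale understate those of low genes. The pairing rests on a code that same-numbered libraries have in common in the labels. Deviations from the group mean correlated within these pairs by 0.814, 0.273, 0.201 and 0.691 over 18188 genes. The labels do not say that libraries came from separate cultures, while the study counts its 4 per group as independent experiments or tumors. The p-values measure the spread between these pairs. The fit was also run on simulated data with known changes as a check of the code, and the outcome is not given here. Alternatives were the fit without the block, pseudocounts of 0.1 and 5, a mean of 10 or more, 3 other scalings, edgeR 4.0.16 and DESeq2 1.42.0 on recovered reads, and leaving out each pair.

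Named genes were the 13 mitochondrial mRNAs, the Sdh genes, the nuclear structural subunits of complexes I, III, IV and V with the smallest p in each direction (up to 3 called, otherwise 1), listed isoforms, Atpif1, called Ndufaf genes and up to 2 called genes of each further list. Other genes named were chosen after their values were seen. Members and lists were chosen with earlier results of these data known. Shared sequence was searched in all GENCODE transcripts on both strands, and principal transcripts were taken by APPRIS rank, then length.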

Additional observations from a re-analysis of the deposited data

Results flagged for a closer look

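In groups of 4 libraries, 1 library stood apart from the other 3 in 10 of 110 groups tested, by a gap that exceeded Dixon's critical share of the group's range. Chance alone gives about 1 in 20 groups, here about 6. Vehicle replicate 3 stood apart for Cox8a (gap 0.888 of the range; 3418 normalized reads against 1656 to 1854) and for Cox5b (0.858; 1949 against 1128 to 1244). Acetate replicate 3 stood apart for Cox5b (0.924; 1362 against 1150 to 1166). Vehicle replicate 1 stood apart for Sdhd (0.911; 3152 against 2221 to 2304) and Hcfc1 (0.880; 7402 against 5642 to 5853). It was also low in the ratio of mt-Rnr1 to mt-Nd1 (0.873; 0.0571 against 0.0639 to 0.0649) and in that of mt-Nd4 to mt-Nd1 (0.840; 0.229 against 0.333 to 0.353). Acetate replicate 1 stood apart for Hcfc1 (0.830; 6357 against 5155 to 5359). Vehicle replicate 4 stood apart for mt-Nd5 (0.892; 46116 against 35429 to 36582) and for the summed mitochondrial mRNAs (0.865; 2.48% of the library against 2.05% to 2.10%).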

How the results depend on the processing

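The replicate block decided the calls: with pairs, limma called 1744 genes and 8 members, and without the block 0 genes and 0 members passed. All 18 named genes that were called lost their call without pairs, and none changed direction under any alternative. The count of members was 13 among genes with a mean of 10 or more and 19 in edgeR, and DESeq2 called 1126 genes. Leaving out 1 pair gave between 409 and 1662 genes and between 1 and 8 members, fewest genes without replicate 3 and fewest members without replicates 2 and 4. Fewer samples enter those fits. The median change of the nuclear members stayed between -0.05 and -0.02, and that of the mitochondrial members between -0.02 and 0.02, under all alternatives run. Counts of members under other pseudocounts and scalings were within 1.5 times of the main count. A value of 1 unit is about 1 read, so the 9 members under 100 normalized reads, 6 of them mitochondrial, carry large counting error and allow no statement on their change.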
